A study of Caenorhabditis elegans with 12 samples.

Results

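The genes described here encode the proteins of the mitochondrial ribosome of Caenorhabditis elegans. They were chosen by name alone, as every gene whose WormBase symbol begins with mrpl or mrps followed by a number. This gave 70 of the 19997 genes in the deposited tables, and no symbol of this form in the name table was missing from the data. By symbol alone, 41 were counted to the large subunit (mrpl) and 29 to the small subunit (mrps). In which subunit each protein sits was not checked, and a symbol can differ from it. The rule uses no expression value.

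Messenger RNA was sequenced from whole hermaphrodites, 12 samples in all, each pooled from at least 80 worms. One set compared long-lived daf-2 animals with animals labelled wild type at day 1 of adulthood. The other followed glp-4 animals at days 1, 3 and 7 of adulthood, and it addressed what changes with normal age. The daf-2 animals carried eri-1(mg366); daf-2(e1370) and their labels name control RNAi bacteria (n = 3). The animals labelled WT carried eri-1(mg366) alone, with no RNAi named in their labels (n = 3), so the daf-2 allele and the bacteria cannot be told apart. Both groups share the eri-1 allele, which enhances RNAi. The remaining groups carried glp-4(bn2), a temperature-sensitive allele that blocks germline proliferation, and were taken at day 1 (n = 2), day 3 (n = 2) and day 7 (n = 2). The labels describe collection in triplicate, and any further sample of a glp-4 age was not analysed here. All adults were kept at 20 °C with 50 µM FUDR, an inhibitor of DNA synthesis that prevents progeny. The labels give 15 °C for larval growth of every group, whereas the methods of the study give glp-4 larvae a higher, restrictive temperature. Nothing states that replicates came from separate cultures, so the p-values measure only the spread between these samples, which may be technical.

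As background, mitochondria keep a small genome of their own, and a dedicated ribosome inside the organelle translates its messages into core subunits of the respiratory chain and the ATP synthase. The ribosomal RNAs are encoded in the mitochondrial genome, but the ribosomal proteins are encoded in the nucleus, made in the cytosol and imported. In the worm, knocking down individual mitochondrial ribosomal proteins, mrps-5 in particular, is known to lengthen life and to induce the mitochondrial unfolded protein response. The daf-2 gene encodes the insulin/IGF-1 receptor, and its reduced function is known to lengthen life.

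Total counts ran from 4538353 in a day 7 sample to 22484551 in a WT sample, and every glp-4 sample, at 12836836 or fewer, was below every daf-2 and WT sample, at 13750913 or more. The 70 genes together took 0.223% to 0.231% of the counts in daf-2 samples, against 0.24% to 0.248% in WT samples. In glp-4 samples they took 0.115% to 0.128% at day 1, 0.0471% to 0.053% at day 3 and 0.0777% to 0.0791% at day 7. A count of 3 corresponded to 0.133 to 0.661 counts scaled to a library of 1000000 (CPM), depending on the sample. The lowest count of any member in any sample was 7, so no member was at the detection floor, and all 70 passed the filter on low counts in every comparison. Values below are either TPM (transcripts scaled for length to a total of 1000000 per sample, used to compare genes) or TMM-normalized CPM (used to compare groups for 1 gene). In whole animals, fewer cells of a type and less RNA per cell cannot be told apart.

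The germline label was checked against 10 germline and 8 oocyte markers. Germline markers summed to 1516 to 1551 TPM in daf-2 samples and 1672 to 1764 TPM in WT samples. In glp-4 samples they summed to 33.1 and 33.5 TPM at day 1, 90.1 and 80.1 TPM at day 3, and 247 and 237 TPM at day 7. The oocyte markers summed to 3.78 and 5.53 TPM in glp-4 samples at day 1, to 5544 to 5725 TPM in daf-2 samples and to 5946 to 6136 TPM in WT samples. The glp-4 animals were thus low in germline transcripts at day 1, and these transcripts were higher at the later ages.

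Levels differed across the 70 genes by about an order of magnitude in the fertile strains and by more in glp-4 animals. The median member had 48.2 TPM in daf-2 samples and 53.1 TPM in WT samples. In glp-4 samples the median member had 23.1 TPM at day 1, 10.3 TPM at day 3 and 14.2 TPM at day 7. The gene with the highest mean over the 12 samples was mrpl-36, a small large-subunit protein of 77 residues with a bacterial L36 relative, at 96.6 ± 10.9 TPM in daf-2 and 85.9 ± 8.4 TPM in WT samples (SD, n = 3 each). In glp-4 samples mrpl-36 had 147 and 134 TPM at day 1, 49.6 and 70.05 TPM at day 3, and 74.98 and 53.7 TPM at day 7. The lowest mean was that of mrps-31, a small-subunit protein without a bacterial relative, at 8.91, 9.84 and 8.96 TPM in daf-2 samples and 9.45, 10.5 and 10.6 TPM in WT samples. Within WT animals the highest member was instead mrpl-40, at a mean of 97.2 TPM, and within glp-4 animals the lowest was mrpl-46 at days 1 and 7 and mrpl-39 at day 3.

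**Figure D1:**
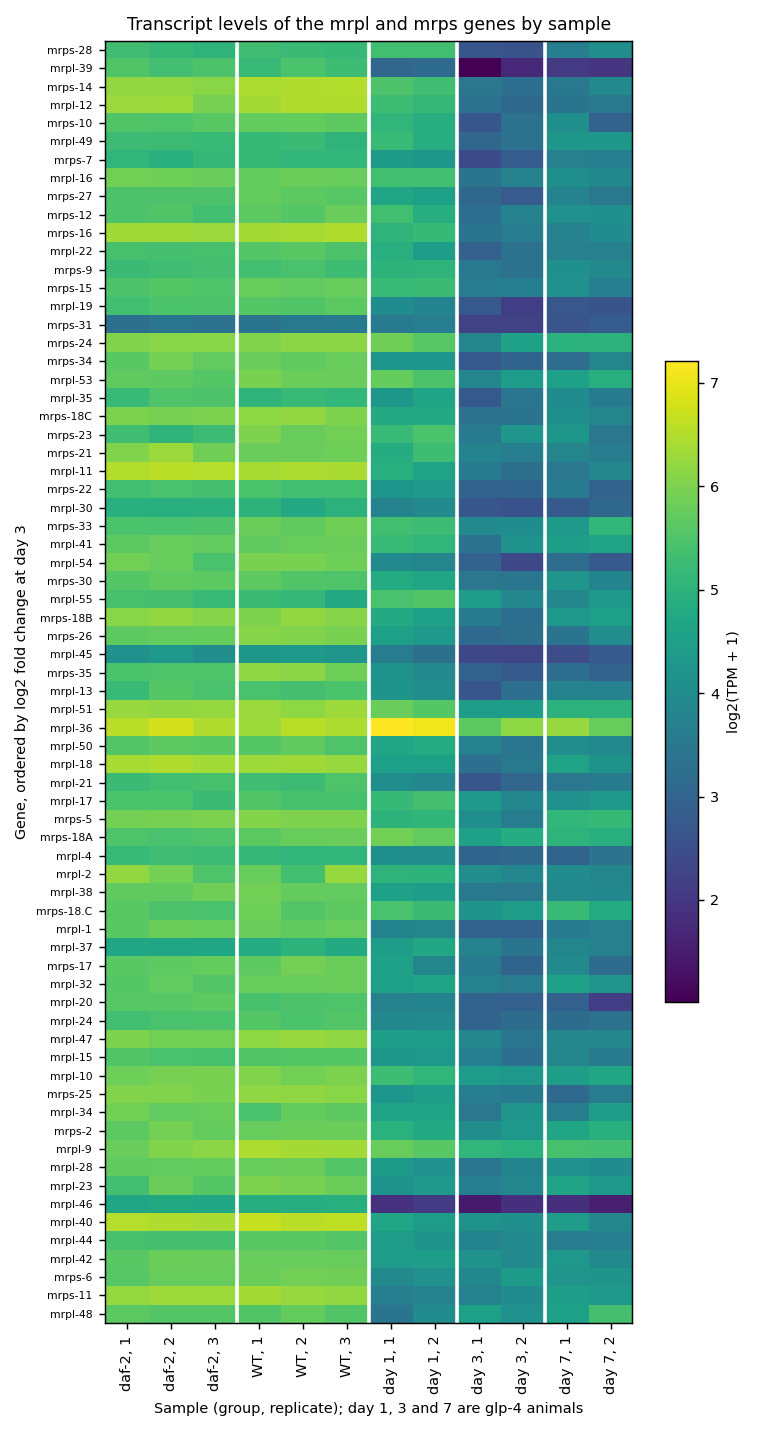
Level of each of the 70 genes in each of the 12 samples as log2(TPM + 1), with genes in rows ordered by their log2 fold change at day 3 and samples in columns. The 4 columns of day 3 and day 7 animals are darker than the day 1 columns for nearly every gene, and mrpl-36 is the brightest row in day 1 glp-4 animals.

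The genes were spread over the 5 autosomes of the nuclear genome (WBcel235): 15 on chromosome I, 12 on II, 22 on III, 11 on IV and 10 on V. Chromosome III held 31.4% of the members, against 13.2% of all genes in the tables. Chromosome X held 0 of the 70, against 13.7% of all genes. Of the 70, 43 (61.4%) had a protein-coding gene on the same strand within 500 bases upstream or downstream, against 31.5% of 19983 genes. Same-strand genes that overlapped were not counted as such neighbours, either for the members or for all genes. Such close spacing is typical of worm operons, in which several genes share a promoter and are separated by trans-splicing, although operon membership itself was not read from the files. The gene mrps-26 lay on chromosome III from 5234612 to 5236364 with a neighbour 81 bases upstream and another 39 bases downstream, and mrpl-48 lay on chromosome V from 5593706 to 5594503 with neighbours 93 and 111 bases away. By contrast, 21 of the 70 overlapped another protein-coding gene, 14 of them one on the opposite strand. The library kit did not mark strand, so counts of those 14, which include mrps-35, mrps-23, mrpl-12, mrps-11 and mrps-18B, may hold reads of their partners. The same holds for the members that overlap a gene on their own strand: mrpl-1, mrpl-42, mrpl-44, mrps-15, mrps-16, mrps-18A and mrps-27.

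In long-lived daf-2 animals the mitochondrial ribosomal protein genes were slightly but broadly lower than in WT animals. Tested across 13528 genes, 34 of the 70 were lower and 0 were higher, beside a background of 22.5% of all genes lower and 25.5% higher. No member was higher at an unadjusted p under 0.05 in edgeR, nor by DESeq2. The median log2 fold change of the members was -0.19, against 0.00 for all genes, and 62 of 70 values were below 0. In 46 of the 70 genes all 3 daf-2 samples lay below all 3 WT samples, which held for 27.7% of all genes, and in 0 of the 70 did they lie above.

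The most significant of these was mrps-35, a small-subunit protein found in mitochondria but not in bacteria. It is encoded on chromosome V from 18981306 to 18985865, where it overlaps sws-1 on the other strand. Its expression was 49.1, 49.2 and 47.3 CPM in daf-2 samples, against 71.2, 71.4 and 68.5 CPM in WT samples. The groups did not overlap, and the fold change was -0.54 ± 0.05 on the log2 scale (SE, adjusted p = 1.1e-05, edgeR). The gene mrps-26, likewise specific to the mitochondrial small subunit, had 45.2, 44.3 and 44 CPM in daf-2 samples, against 61.6, 61.4 and 58.7 CPM in WT samples. Every daf-2 value was again below every WT value (log2 fold change -0.44 ± 0.05, adjusted p = 5.8e-05). For the large subunit, mrpl-9, whose bacterial relative L9 reaches out from the side of the particle, had 40.4, 45.3 and 47.5 CPM in daf-2 samples and 65.1, 64.8 and 62.5 CPM in WT samples. It fell by 0.53 on the log2 scale (SE 0.07, adjusted p = 7.5e-05).

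The widest fold change, picked out after its value was seen, was that of mrps-23, another mitochondria-specific small-subunit protein, which overlaps prp-40 on the other strand. It had 10.2, 8.14 and 9.11 CPM in daf-2 samples and 17.0, 15.0 and 16.4 CPM in WT samples, a log2 fold change of -0.81 ± 0.11 (adjusted p = 1.6e-04). No other member reached such a distance, and none of the 34 would pass a further minimum of 2-fold. The longevity-linked mrps-5 (chromosome V, 12563487 to 12565801, 6 exons, neighbour 103 bases upstream) had 74.8, 72.6 and 72.8 CPM in daf-2 samples, against 84.6, 85.2 and 84.7 CPM in WT samples. Although small, this difference was several times the spread within either group (log2 fold change -0.21 ± 0.04, adjusted p = 0.0023), although it was not called by library totals alone (-0.086, adjusted p = 0.13) or by limma on TPM. The member of highest mean TPM, mrpl-36, had 11.9, 13.2 and 10.3 CPM in daf-2 samples and 10.1, 12.8 and 11.5 CPM in WT samples. The groups overlapped, with a log2 fold change of 0.04 ± 0.13 (adjusted p = 0.83, edgeR). The member of lowest mean TPM, mrps-31, had 17.3, 18.3 and 16.2 CPM in daf-2 samples and 18.8, 21.7 and 21.7 CPM in WT samples. Its log2 fold change was -0.27 ± 0.10 (adjusted p = 0.037, edgeR). That call was lost by DESeq2 (adjusted p = 0.07), by library totals alone (adjusted p = 0.23) and, in edgeR, without daf-2 replicate 1 or 3 or WT replicate 2 or 3 (adjusted p = 0.069 to 0.12).

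Members counted to the small subunit by symbol made up more of the decrease by count, with 18 of 29 lower and a median of -0.27. For the large subunit it was 16 of 41 and a median of -0.16, a difference that was not tested. The ratio of summed large-subunit to summed small-subunit TPM, which no scaling of the libraries can change, was 1.43, 1.43 and 1.40 in daf-2 samples and 1.31, 1.33 and 1.34 in WT samples. The 2 groups did not overlap in this ratio. The 8 members with values above 0 were mrpl-4, mrpl-20, mrpl-34, mrpl-35, mrpl-36, mrpl-39, mrpl-55 and mrps-21, all between 0.02 and 0.16 and none called.

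The calls of this comparison depend on how the libraries are scaled. By library totals alone 13 of the 70 members were lower and 0 higher, beside 1869 of all 13528 genes lower and 4751 higher. The split of calls over all genes was then 71.8% higher, against 53.2% higher with TMM factors. The median of the members relative to that of all genes was -0.19 under both. Beside this result, 6 of 10 germline and 6 of 8 oocyte markers were lower in daf-2 animals and 5 of 6 sperm markers were higher (348 to 355 TPM in daf-2, against 165 to 201 TPM in WT samples), and their part in the result was not tested.

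**Figure D2:**
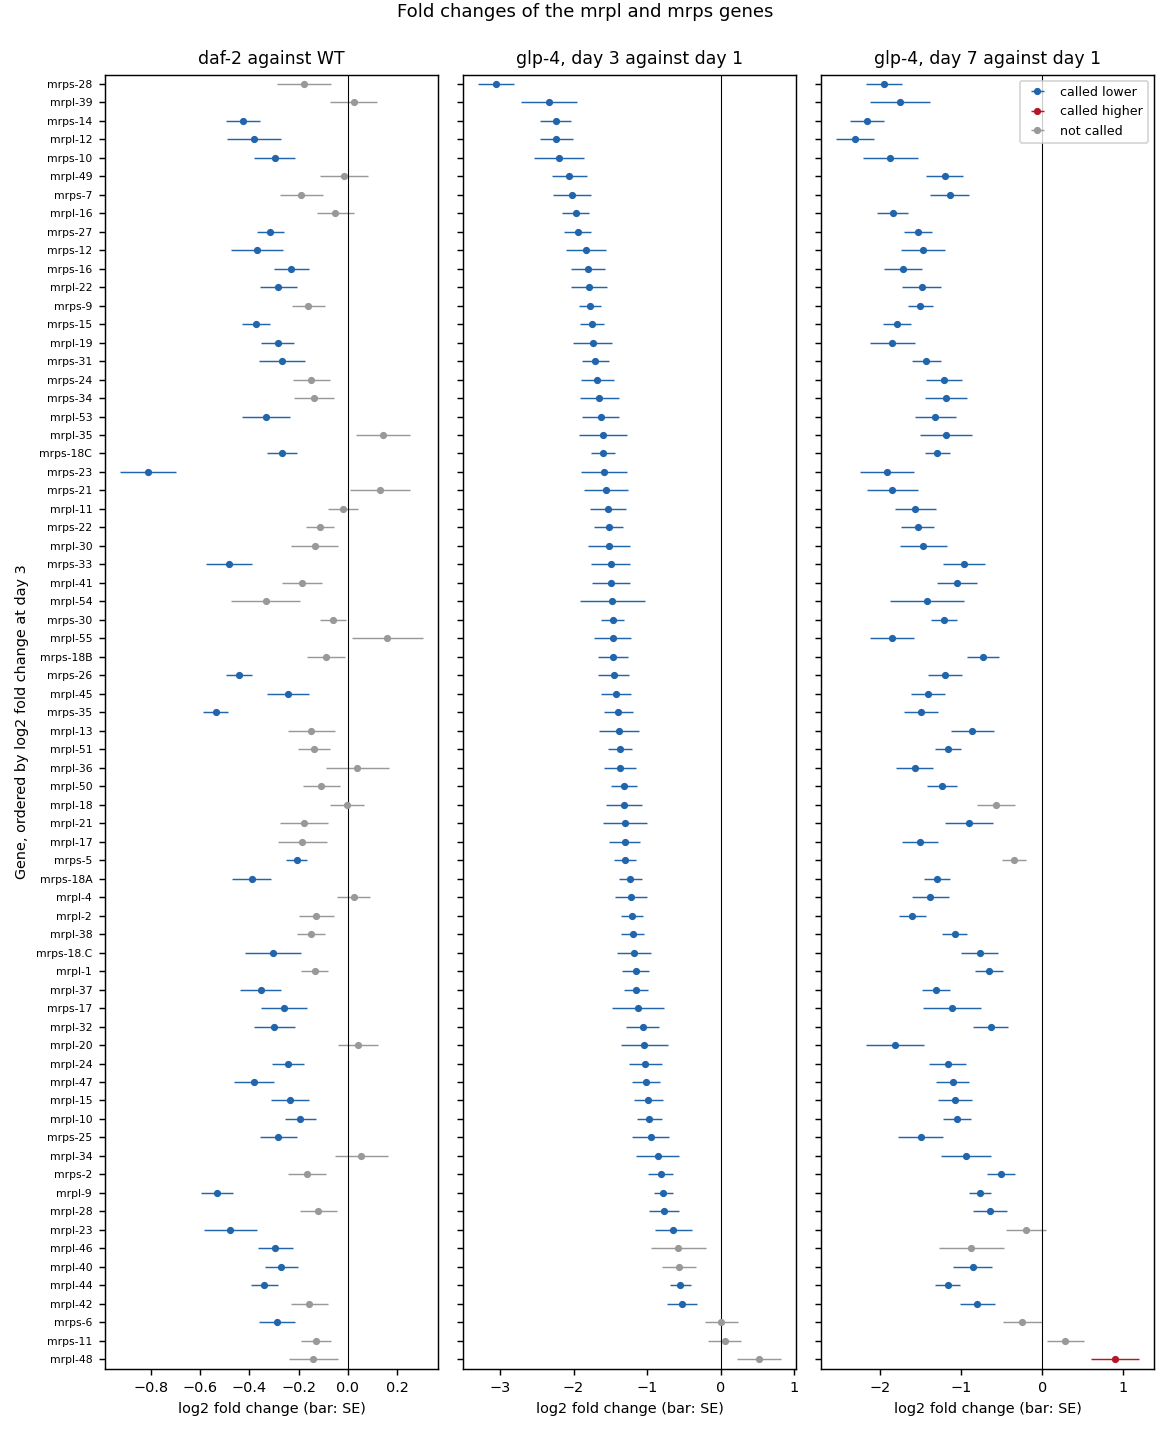
Log2 fold change of each of the 70 genes, with bars for the standard error, in daf-2 against WT animals and in glp-4 animals at day 3 and at day 7 against day 1, each panel on its own axis. Blue marks genes called lower and red the single gene called higher, with 34, 65 and 63 genes in blue from left to right.

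With age the decline was much larger. At day 3, 65 of the 70 genes were lower than at day 1 in glp-4 animals and 0 were higher, beside 27.5% of all 13222 genes lower and 26.6% higher. None was higher at an unadjusted p under 0.05 in edgeR, or by DESeq2. The median log2 fold change was -1.39, against 0.00 for all genes. At least a 2-fold decrease was called for 55 of 70, against 15.2% of all genes.

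The strongest decrease was that of mrps-28, a small-subunit protein whose human relative occupies part of the place of bacterial S1, encoded on chromosome V from 19644239 to 19645676. It had 21.2 and 20.8 CPM at day 1, 2.55 and 2.47 CPM at day 3, and 4.49 and 6.21 CPM at day 7. Day 3 samples were the lowest and day 1 samples the highest, with no overlap between any pair of ages. The log2 fold change at day 3 was -3.05 ± 0.24 (adjusted p = 1.0e-07) and rested on counts of 20 and 18 at day 3.

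The next most significant genes at day 3 were also of the small subunit. For mrps-9, relative of the bacterial S9 that contacts transfer RNA, values were 41.2 and 41.1 CPM at day 1, 12.5 and 11.4 CPM at day 3, and 15.5 and 13.5 CPM at day 7. Replicates were tight and the day 3 decrease was -1.78 ± 0.15 on the log2 scale (adjusted p = 2.0e-07). For mrps-27, a pentatricopeptide-repeat protein in humans, values were 37.6 and 34.3 CPM at day 1, 10.5 and 8.10 CPM at day 3, and 13.8 and 11.1 CPM at day 7. Again both later ages lay far below day 1 (day 3: -1.95 ± 0.18, adjusted p = 4.6e-07), and the gene overlaps hinf-1 on the same strand.

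At day 7 the picture against day 1 was similar, with 63 of 70 genes lower beside 31.3% of all genes, and 1 higher beside 30.6%. The median was -1.21, against 0.02 for all genes, and 50 of 70 were lower by at least 2-fold, against 20.2% of all genes. The 2 comparisons use the same day 1 samples, so their calls are not independent. Counted gene by gene, 62 were lower at both ages, 3 at day 3 only, 1 at day 7 only and 4 at neither.

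The gene mrps-15, relative of a primary rRNA-binding protein of the bacterial small subunit, led at day 7. It had 43.0 and 43.1 CPM at day 1, 12.3 and 13.3 CPM at day 3, and 14.5 and 10.5 CPM at day 7 (day 7: -1.79 ± 0.17, adjusted p = 4.4e-07). Day 1 again stood clear of both later ages, which overlapped each other. On the same strand, mrps-15 overlaps hbs-1. The gene mrps-14, whose protein is related to bacterial S14, had 28.04 and 24.8 CPM at day 1, 5.87 and 5.22 CPM at day 3, and 4.84 and 6.82 CPM at day 7 (day 7: -2.17 ± 0.21, adjusted p = 6.8e-07). The largest decrease at day 7 was that of mrpl-12, which forms the flexible stalk that recruits elongation factors. It had 21.0 and 18.4 CPM at day 1, 4.47 and 3.84 CPM at day 3, and 3.80 and 4.09 CPM at day 7 (day 7: -2.31 ± 0.23, adjusted p = 8.4e-07), and it overlaps W09D10.5 on the other strand.

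The members of highest and lowest mean TPM, mrpl-36 and mrps-31, moved with the rest. These ranks hold for TPM, which scales for length, and not for the CPM given here. By CPM, mrps-31 was above mrpl-36 in both day 1 samples. Expression of mrpl-36 was 22.9 and 20.7 CPM at day 1, 6.89 and 10.02 CPM at day 3, and 8.46 and 6.21 CPM at day 7, with log2 fold changes of -1.37 ± 0.22 at day 3 (adjusted p = 9.4e-05) and -1.58 ± 0.23 at day 7 (adjusted p = 3.2e-05). Expression of mrps-31 was 24.8 and 27.3 CPM at day 1, 7.79 and 8.24 CPM at day 3, and 8.98 and 10.3 CPM at day 7, with log2 fold changes of -1.70 ± 0.18 at day 3 (adjusted p = 1.8e-06) and -1.43 ± 0.18 at day 7 (adjusted p = 7.9e-06). Day 1 did not overlap the later ages in either gene.

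**Figure D3:**
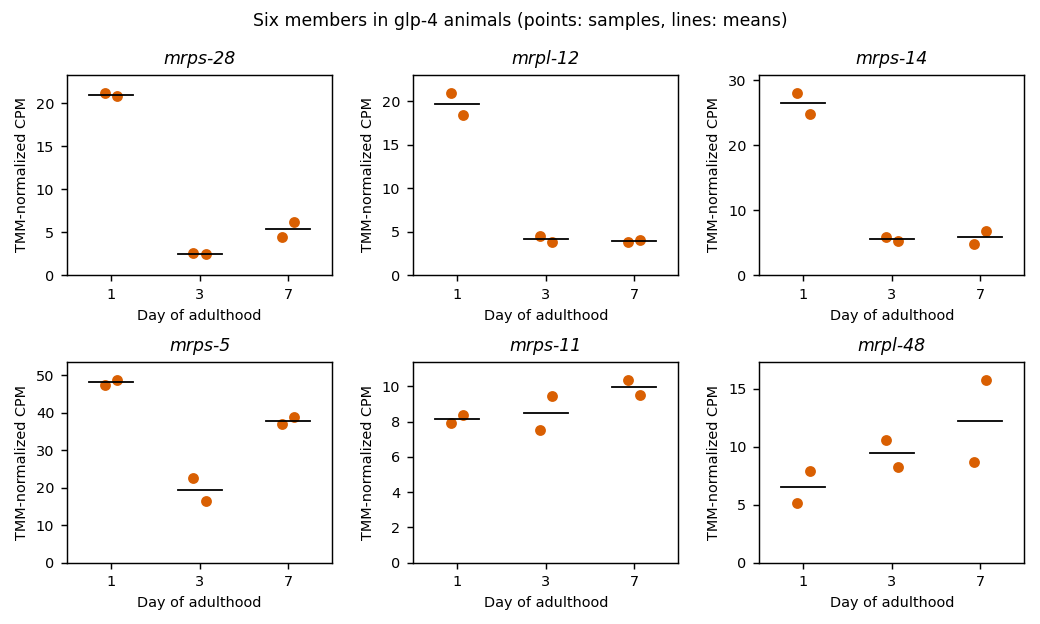
TMM-normalized CPM of 6 genes in glp-4 animals at days 1, 3 and 7 of adulthood, with a point for each sample, a line for the mean of the 2 samples and a separate linear axis from 0 for each gene. The genes mrps-28, mrpl-12 and mrps-14 fall by day 3, mrps-5 falls at day 3 and is higher at day 7 (means of 48.1, 19.5 and 37.9 CPM), and mrps-11 and mrpl-48 show no decrease.

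Of the 70, 4 were lower at neither age: mrpl-46, mrpl-48, mrps-6 and mrps-11. Expression of mrps-11, the relative of the bacterial platform protein S11, was 7.92 and 8.39 CPM at day 1, 7.53 and 9.47 CPM at day 3, and 10.4 and 9.54 CPM at day 7. Day 1 and day 3 overlapped, and the log2 fold change at day 3 was 0.06 ± 0.23 (adjusted p = 0.85). It overlaps the innexin gene inx-11 on the other strand. For mrps-6, the relative of bacterial S6, values were 9.31 and 10.6 CPM at day 1, 8.17 and 11.9 CPM at day 3, and 8.46 and 8.33 CPM at day 7 (day 3: 0.01 ± 0.23, adjusted p = 0.98).

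The gene mrpl-48, a large-subunit protein without a bacterial relative, was the only member called higher at day 7 than at day 1. It had 5.14 and 7.93 CPM at day 1, 10.6 and 8.24 CPM at day 3, and 8.64 and 15.8 CPM at day 7 (day 7: 0.90 ± 0.30, adjusted p = 0.018). The call rested on 1 sample: without day 7 replicate 2 the log2 fold change was 0.39 (adjusted p = 0.38), and DESeq2 gave an adjusted p of 0.067. The gene mrpl-46, likewise specific to the mitochondrial large subunit, was the sparsest of these 4, with 3.53 and 4.19 CPM at day 1, 2.04 and 3.16 CPM at day 3, and 2.42 and 1.82 CPM at day 7. Its values at the later ages were all below those at day 1, but the fold changes of -0.58 ± 0.37 at day 3 (adjusted p = 0.21) and -0.87 ± 0.40 at day 7 (adjusted p = 0.072) missed the threshold, and its counts were 12 to 46.

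The longevity-linked mrps-5 was, with mrpl-18 and mrpl-23, among the 3 members lower at day 3 only. It had 47.5 and 48.8 CPM at day 1, 22.6 and 16.3 CPM at day 3, and 36.96 and 38.8 CPM at day 7. Day 3 was far lower than day 1 (-1.30 ± 0.15, adjusted p = 5.6e-06), whereas at day 7 the log2 fold change was -0.35 ± 0.15 (adjusted p = 0.055). Without TMM factors, by library totals alone, that last value was 0.19, so its direction is not settled, while without day 1 replicate 1 it was -0.37 and called (adjusted p = 0.041, edgeR).

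Between day 3 and day 7, 6 of the 70 genes were higher and 1 was lower at day 7, beside 14.2% of all genes higher and 18.4% lower. The median of the members was 0.10, against 0.01 for all genes. The most significant was mrps-5 (0.96 ± 0.16, adjusted p = 3.8e-04), followed by mrps-28 (1.09 ± 0.29, adjusted p = 0.011) and mrps-18B, one of the paralogs related to bacterial S18. For mrps-18B values were 7.66 and 6.18 CPM at day 3 and 10.7 and 12.3 CPM at day 7 (0.73 ± 0.22, adjusted p = 0.022), without overlap, and it overlaps gldi-7 on the other strand. The other 3 were mrpl-18, a relative of bacterial L18 (0.75, adjusted p = 0.046), mrpl-49 (0.85, adjusted p = 0.026) and mrps-7, a relative of bacterial S7 (0.88, adjusted p = 0.033). The gene lower at day 7 was mrpl-44, which in humans carries an RNase III-like fold. It had 37.8 and 33 CPM at day 1, 22.2 and 26.2 CPM at day 3, and 15.4 and 16.1 CPM at day 7, a stepwise decrease (day 7 against day 3: -0.62 ± 0.16, adjusted p = 0.0096), and it overlaps mccc-2 on the same strand. In edgeR, mrps-28 and mrps-18B lost their calls without day 3 replicate 1, day 3 replicate 2 or day 7 replicate 2 (adjusted p = 0.061, 0.067 and 0.14 for mrps-28 and 0.052, 0.17 and 0.15 for mrps-18B). The call of mrpl-44 was lost without day 3 replicate 2 (adjusted p = 0.088) or day 7 replicate 1 (adjusted p = 0.055) and by library totals alone (-0.12, adjusted p = 0.61).

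Counts between these ages moved strongly with scaling and with single samples. By library totals alone 33 of the 70 members were higher and 0 lower, beside 5726 of all 13222 genes higher and 1055 lower. Of all calls 84.4% were then higher, against 43.5% with TMM factors. The median of the members relative to that of all genes was 0.095 under both. Leaving out either day 3 replicate 1 or day 7 replicate 2 left 1 member higher and leaving out day 7 replicate 1 left 3, while 1 was higher by DESeq2. For day 7 against day 1, library totals alone gave 45 members lower and 2 higher, beside 2593 of all 13222 genes lower and 6550 higher. Of all calls 71.6% were then higher, against 49.4% with TMM factors. The median of the members relative to all genes was -1.24, against -1.23.

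Large-subunit and small-subunit genes fell to a like degree by count, 38 of 41 and 27 of 29 at day 3, and 37 of 41 and 26 of 29 at day 7. The median was -1.31 for the large and -1.56 for the small subunit at day 3, and -1.17 and -1.30 at day 7. The ratio of summed large-subunit to small-subunit TPM was 1.31 and 1.31 in day 1 samples, 1.63 and 1.54 in day 3 samples, and 1.36 and 1.38 in day 7 samples, without overlap between ages. Genes were also grouped, with their values already known, by whether the protein has a bacterial relative in the standard nomenclature. The 26 without one had medians of -1.46 at day 3 and -1.22 at day 7, and the 44 with one had medians of -1.31 and -1.20, with quartiles that overlapped widely. All 4 genes with an mrps-18 symbol (mrps-18A, mrps-18B, mrps-18C and mrps-18.C) were lower at both ages, with day 3 values between -1.60 and -1.18. Their proteins have 183, 238, 403 and 139 residues in the same order. Whether each is a relative of bacterial S18, mrps-18C in particular, was not checked. The 43 genes with a close same-strand neighbour had a median of -1.42 at day 3, and the other 27 a median of -1.37. At day 7 the medians were -1.21 and -1.30 in the same order. The other 27 include mrpl-1, mrpl-44, mrps-15, mrps-16 and mrps-18A, which overlap a gene on the same strand.

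Beside the decrease with age, 10 of 10 germline and 8 of 8 oocyte markers were higher at days 3 and 7 than at day 1, while 3 of 3 body wall muscle and 3 of 3 hypodermis markers were lower. Of 4 intestine markers 2 were lower (act-5 and elt-2) and 2 higher (ges-1 and vit-2, a yolk protein gene) at day 3, and 3 were lower and 1, vit-2, higher at day 7, with sums of 4792 and 6171 TPM at day 1, 14109 and 11222 TPM at day 3, and 7987 and 7468 TPM at day 7. Muscle markers summed to 2448 and 2928 TPM at day 1, 544 and 477 TPM at day 3, and 234 and 258 TPM at day 7. Of 4 neuronal markers 1 was higher and none lower at either age, with sums of 79.6 and 85.9 TPM at day 1, 99.8 and 102 TPM at day 3, and 161 and 143 TPM at day 7. The part of these cell types in the decrease was not tested.

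The same genes differed between the strains at day 1. In glp-4 animals at day 1, 49 of 70 were lower than in WT animals of the same age, beside 40% of all 15610 genes, and 5 were higher, beside 45.5%. The median was -0.70, against 0.28 for all genes, so relative to all genes it was -0.98. Allele, germline, larval temperature as the methods give it, and the eri-1 background differ together between these groups and cannot be told apart. In the same comparison 10 of 10 germline markers were lower (median -6.25), while 3 of 3 body wall muscle (median 2.46), 3 of 3 hypodermis (median 5.58), 4 of 4 neuronal (median 1.87) and 3 of 4 intestine markers (median 2.42) were higher, and their part in the result was not tested. The day 1 samples are those used above as the baseline of age.

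The most significant was mrps-11, with 8.62 and 9.06 CPM in glp-4 samples at day 1, against 45.3, 42.8 and 41.7 CPM in WT samples (-2.29 ± 0.12, adjusted p = 5.0e-12). The groups were far apart. The gene mrpl-46 had 3.84 and 4.53 CPM in glp-4 samples and 29.2, 30.1 and 31.3 CPM in WT samples (-2.84 ± 0.16, adjusted p = 1.0e-11), the largest decrease of all members. The gene mrpl-1, whose bacterial relative forms the L1 stalk near the exit site, had 21.3 and 21.9 CPM in glp-4 samples and 60.3, 58.8 and 61.7 CPM in WT samples (-1.48 ± 0.09, adjusted p = 7.1e-11), and it overlaps emc-6 on the same strand. The genes that were lower at neither later age, mrps-11, mrpl-46, mrpl-48 (-1.56 ± 0.22) and mrps-6 (-1.51 ± 0.13), were lower in glp-4 animals at day 1. They were among the 49 of 70 members lower in this comparison. The same day 1 samples serve here and as the baseline of age, so the 2 results are not independent. This is a description of 4 genes, with no test of the link.

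The 5 higher genes were led by mrpl-36, with 24.9 and 22.4 CPM in glp-4 samples at day 1, against 9.52, 11.96 and 10.9 CPM in WT samples (1.13 ± 0.16, adjusted p = 3.8e-06). Next were mrps-31, with 27.01 and 29.6 CPM in glp-4 samples and 17.7, 20.2 and 20.5 CPM in WT samples (0.54 ± 0.11, adjusted p = 3.2e-04), and mrpl-55, a mitochondria-specific protein, with 15.3 and 15.7 CPM in glp-4 samples and 10.001, 9.57 and 7.40 CPM in WT samples (0.79 ± 0.18, adjusted p = 6.1e-04). In none of the 3 did the groups overlap, but mrps-31 was not called by library totals alone (adjusted p = 0.12), DESeq2 (adjusted p = 0.061) or limma on TPM (adjusted p = 0.32 to 0.36). The other 2 were mrps-28 (0.48 ± 0.14) and mrps-18A (0.44 ± 0.11), and neither was called with DESeq2 size factors or by library totals alone. Expression of mrps-5 was 51.7 and 52.7 CPM in glp-4 samples and 79.5, 79.7 and 80.1 CPM in WT samples (-0.61 ± 0.10, adjusted p = 2.1e-05). The number of higher genes ranged from 1 to 15 over other scalings and tools, and that of lower genes from 38 to 61, while a minimum of 2-fold left 23 lower and 1 higher.

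Other genes of the organelle were compared by lists chosen with earlier results of these data in view. Of 9 listed translation factors and ribosome-linked genes 5 were matched by symbol, and all 5 were lower at both day 3 and day 7. The elongation factor gfm-1 fell to 21.3 ± 1.7 CPM at day 3, against 101 ± 1.6 CPM at day 1 (SD, n = 2 each, log2 fold change -2.25 ± 0.13, adjusted p = 3.9e-09). The elongation factor tufm-1, which brings aminoacylated transfer RNA, fell to 33.3 ± 1.7 CPM, against 152 ± 13.6 CPM (-2.19 ± 0.13, adjusted p = 4.2e-09). The gene dap-3, a small-subunit protein whose symbol lies outside the naming rule, was lower too (-1.34 ± 0.20, adjusted p = 5.4e-05). In daf-2 animals only tufm-1 (-0.24 ± 0.04, adjusted p = 5.4e-04) and dap-3 (-0.21 ± 0.07, adjusted p = 0.021) of the 5 were lower, and by library totals alone 1 was lower and 1 higher. Of 10 mitochondrial tRNA synthetases matched, 6 were lower and 1, rars-2, was higher at day 3, with a median of -0.79. At day 7, 5 were lower and 1 higher (median -0.57), whereas by library totals alone 0 were lower and 2 higher (median -0.029). For rars-2 means were 15.6 ± 0.9 CPM at day 3 and 9.47 ± 1.14 CPM at day 1 (0.72 ± 0.19, adjusted p = 0.005).

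The 12 messages encoded by the mitochondrial genome, matched by chromosome because their symbols differ between annotations, are what this ribosome translates. Of these, 11 were lower at day 3 (median -0.91) and 12 at day 7 (median -1.38, and -0.84 by library totals alone) than at day 1. In daf-2 animals 8 of 12 were lower than in WT animals (median -0.47, and 7 of 12 by library totals alone), although the WT samples spread widely, at summed levels of 3029, 3190 and 3312 TPM in daf-2 samples and 5902, 3457 and 4622 TPM in WT samples. In glp-4 animals at day 1, by contrast, all 12 were higher than in WT animals (median 2.75), with sums of 19012 and 20032 TPM, while 49 of the 70 ribosomal protein genes were lower. How much of each message the libraries captured depends on its polyadenylation, which was not measured.

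The partners that join these products in the respiratory chain are encoded in the nucleus. Of 38 such genes, counting subunits of the chain, cytochrome c and the ATP synthase, 26 were lower and 1, cyc-2.2, was higher in daf-2 animals, with a median of -0.20 against -0.19 for the ribosomal genes, although by library totals alone 9 were lower and 3 higher. At day 3, 34 of 37 tested were lower with a median of -1.32. At day 7, 35 of 37 were lower with a median of -1.86, and 2, ucr-2.3 and asb-1, were higher. Between day 3 and day 7, 27 of 37 were lower at day 7 (median -0.53), whereas the ribosomal genes had 1 of 70 lower. By library totals alone 2 of these 37 were lower.

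Transcripts of the cytosolic ribosomal protein genes, a separate set, were also lower in daf-2 animals and with age. Of the 80 such genes tested, 77 were lower in daf-2 animals, also by library totals alone. Their median was -0.43, beyond that of the mitochondrial genes. At day 3, 76 of 79 were lower (median -0.90), and at day 7, 77 of 79 (median -0.92), with TMM factors both smaller than the medians of -1.39 and -1.21 of the mitochondrial set. By library totals alone 60 were lower and 3 higher at day 7 (median -0.39), against a median of -0.68 for the mitochondrial set. Of 12 genes of the mitochondrial unfolded protein response, 8 were lower and 1, the response's transcription factor atfs-1, higher at day 3. At day 7, 8 were lower than at day 1 and 0 higher, and atfs-1 was among the 8 (-0.42 ± 0.11, adjusted p = 0.0039) and was also lower than at day 3 (-0.80 ± 0.11, adjusted p = 7.2e-05). By library totals alone 4 of the 12 were lower and 2 higher at day 7. The genes rars-2, cyc-2.2, ucr-2.3, asb-1 and atfs-1 were named after their values were seen. The chaperone hsp-60 fell to 77.1 ± 7.8 CPM at day 3, against 517 ± 30.5 CPM at day 1 (-2.75 ± 0.12, adjusted p = 1.4e-10), and hsp-6 to 298 ± 22.8 CPM, against 804 ± 45.7 CPM (-1.43 ± 0.10, adjusted p = 4.1e-08). Between day 3 and day 7 both chaperones were higher at day 7, hsp-6 by 0.50 ± 0.10 (adjusted p = 0.002) and hsp-60 by 0.53 ± 0.12 (adjusted p = 0.0028). In daf-2 animals 5 of the 12 genes were lower and 1 higher (median -0.12), and by library totals alone 1 was lower and 1 higher (median 0.0035). Among the 5 was hsp-60 (-0.64 ± 0.05, adjusted p = 5.6e-06), whereas hsp-6 was not called.

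**Figure D4:**
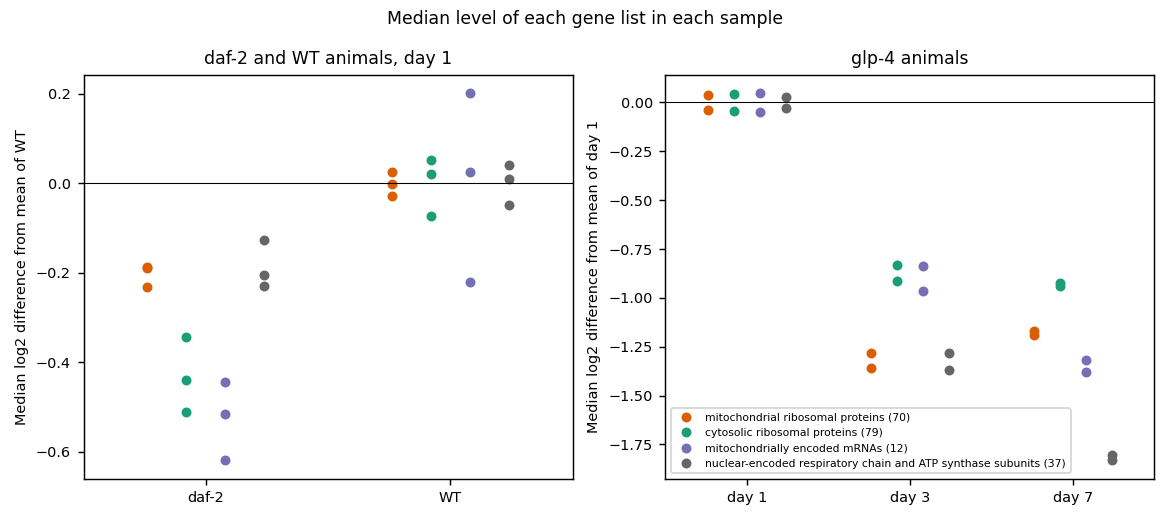
Median log2 difference of each gene list in each sample, from the mean of WT on the left and from the mean of day 1 on the right, on TMM-normalized log2(CPM + 0.5); the legend gives the genes per list in the glp-4 fit. In daf-2 samples the mitochondrial ribosomal genes sit between -0.23 and -0.19, and at day 7 they sit at -1.19 and -1.17 while the nuclear respiratory genes sit at -1.83 and -1.81.

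Sums of TPM, which use no model and no TMM factors, ran in the same directions. The size of the rise from day 3 to day 7 depended on scaling. With TMM factors the median of the members was 0.10, against 0.42 by limma on log2(TPM + 1). The 70 genes summed to 3516, 3631 and 3490 TPM in daf-2 samples, against 3784, 3772 and 3744 TPM in WT samples. In glp-4 samples they summed to 1974 and 1879 TPM at day 1, 803 and 857 TPM at day 3, and 1155 and 1135 TPM at day 7. Every daf-2 sum was below every WT sum, and the 3 ages did not overlap. Set against the summed TPM of the 38 nuclear respiratory genes, which cancels the scaling of the libraries, the ribosomal genes stood at 20.5, 21.3 and 20.6 per 100 in daf-2 samples and 21.3, 20.7 and 20.8 per 100 in WT samples, with overlapping groups. The same measure was 11.1 and 10.2 in day 1 samples, 10.5 and 11.2 in day 3 samples, and 17.3 and 17.4 in day 7 samples. Days 1 and 3 overlapped and day 7 stood above both. Set against the cytosolic ribosomal protein genes it was 1.82, 1.92 and 1.89 per 100 in daf-2 samples and 1.67, 1.60 and 1.60 per 100 in WT samples, without overlap, and 0.955 and 0.958 in day 1 samples, 0.68 and 0.70 in day 3 samples, and 0.802 and 0.791 in day 7 samples.

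**Figure D5:**
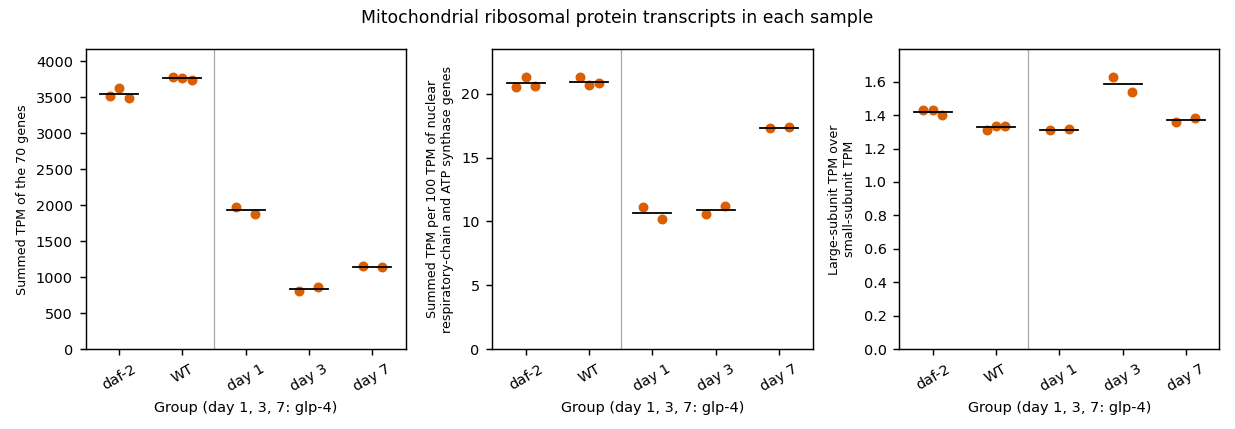
Summed TPM of the 70 genes (left), the same sum per 100 TPM of the 38 nuclear respiratory-chain and ATP synthase genes (middle) and the ratio of large-subunit to small-subunit TPM (right), with a point for each sample and a line for each group mean. The sum is lowest at day 3, the middle measure rises at day 7 to 17.3 and 17.4, and the subunit ratio is highest at day 3 at 1.63 and 1.54.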

How the data were processed

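Poly(A)-selected mRNA of 12 whole-animal samples was sequenced as 50 bp single-end reads without strand information. The submitters' processing notes name kallisto, edgeR, DiffBind and the builds ce11 and WBcel235, without versions. The authors deposited gene-level estimated counts, here without decimals, and TPM, which sum to 1000000 per sample. The deposited estimated counts were tested with edgeR 4.0.16 in R 4.3.3 (quasi-likelihood, filterByExpr with a minimum count of 10, TMM factors, Benjamini-Hochberg adjustment over all tested genes, threshold 0.05). daf-2 and WT samples were fitted together (6 samples), the glp-4 ages together (6 samples), and day 1 against WT with all 12. Values after ± are SDs or, for fold changes, SEs. Alternatives used DESeq2 1.42.0 and limma 3.58.1 on log2(TPM + 1). Scripts were tested on simulated data. Members and lists were chosen with earlier results of these data known. Named genes were, per comparison, the 3 called members with the lowest adjusted p in each direction, mrps-5, the members of highest and lowest mean TPM, up to 3 called against most others, and up to 4 called genes per list. Promoter and protein sequences were not used here.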

Additional observations from a re-analysis of the deposited data

How the results depend on the processing

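Directions of the member medians were kept under every alternative run, and the decrease with age kept 53 to 66 members lower at each age except at day 7 by library totals alone (45), by limma on TPM (48) and with a minimum log2 fold change of 1 (50). Called lower under all alternatives without a fold minimum were 11 members in daf-2 animals, 55 at day 3, 43 at day 7 and 35 at day 1 against WT. The same count over all genes was not made, so these counts have no background to be judged against. The cause of the differences between settings was not tested.

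For daf-2 against WT, library totals alone gave 13 lower and a median of -0.069, beside 0.13 for all genes. Limma on log2(TPM + 1) gave 1 higher, 18 lower and -0.065, the pseudocount of 0.1 gave 1, 18 and -0.067, and limma over all genes gave 1, 14 and -0.065. Of all 12768 genes, the pseudocounts of 1 and 0.1 called 4152 and 4133 higher, and 1593 and 1576 lower. Limma over all genes called 4255 of 18417 higher and 1605 lower. A minimum log2 fold change of 1 left 0 members. Leaving out single samples gave medians from -0.24 to -0.18 and 25 to 33 lower.

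For day 3 against day 1, the median was -1.30 with upper-quartile factors, -1.20, -1.29 and -1.20 with the 3 limma settings, and -1.45 to -1.33 when single samples were left out, with 0 to 1 higher and 59 to 64 lower.

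For day 7 against day 1, medians were -1.01 with upper-quartile factors, -0.68 by library totals alone, and -0.74, -0.77 and -0.74 with limma. The number higher was 2 by library totals alone and by each limma setting, and 0 by DESeq2 and with the minimum fold. Of all genes, the limma settings called 5833 of 13353, 5746 of 13353 and 6271 of 18726 higher, and 2674, 2620 and 2745 lower. Leaving out single samples gave 0 to 1 members higher, 53 to 63 lower and medians from -1.32 to -1.19.

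For day 7 against day 3, library totals alone gave 33 higher, 0 lower and a median of 0.61, beside 0.51 for all genes. Limma gave 26, 22 and 19 higher, 0 lower, and medians of 0.42, 0.45 and 0.42, beside 0.30, 0.34 and 0.25 for all genes. Of all genes, these settings called 3891 of 13353, 3546 of 13353 and 3777 of 18726 higher, and 1264, 1227 and 1179 lower. For the members, upper-quartile factors gave a median of 0.22, DESeq2 gave 1 higher, and the minimum fold left 1 higher and 0 lower. Leaving out single samples gave 1 to 4 higher, 0 to 1 lower and medians from 0.064 to 0.20.

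For day 1 against WT, the number higher was 3 with DESeq2 size factors, 15 with upper-quartile factors, 2 by library totals alone and by DESeq2, 2, 1 and 1 with limma, and 1 with the minimum fold, which left 23 lower. Medians were -0.95 with DESeq2 size factors, -0.35 with upper-quartile factors, -1.04 by library totals alone, -0.96 with DESeq2, -1.06, -1.09 and -1.06 with limma, -0.78 without the filter and -0.92 with the compared samples only.

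Named genes not called in the main result changed sign. The fold change of mrps-5 at day 7 against day 1 was 0.19 by library totals alone and 0.10, 0.11 and 0.10 with limma. That of mrpl-36 at day 7 against day 3 was 0.29 by library totals alone and 0.11, 0.11 and 0.11 with limma, and -0.47 to 0.066 with single samples left out. That of mrpl-36 in daf-2 animals was -0.045 to 0.13 with single samples left out.

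Same-numbered replicates did not deviate together, with correlations of -0.014 to 0.028. With 2 samples at each glp-4 age, deviations from the group mean mirror each other. Such correlations over all genes cannot exclude a shared culture or day, so whether the numbers pair the samples is unknown. With the replicate block 32 members were lower in daf-2 animals, 66 at day 3, 65 at day 7 (1 higher), 6 higher and 1 lower at day 7 against day 3, and 48 lower and 5 higher at day 1 against WT, with medians of -0.19, -1.39, -1.22, 0.10 and -0.70. Of the named genes it changed the calls of mrps-31 in daf-2 animals (adjusted p = 0.061, edgeR) and mrps-5 at day 7 against day 1 (adjusted p = 0.047, edgeR).

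Limits are the 2 samples at each glp-4 age, counts as low as 7 per gene at the later ages, and scaling between libraries that differ in composition. The planned promoter motif search was not run.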
